A study of Trichoderma reesei with 6 samples.

Results

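The gene models of scaffold 33 of Trichoderma reesei were described by their RNA levels in hyphae fermenting glucose or xylose. Members were all models whose name carries scaffold number 33, in the 7 series of names that the table uses, which gave 58 of 9129 models. The scaffold was picked from earlier results on the same libraries because its models differed between the sugars more than most. Differences between xylose and glucose are therefore given below as a description, without p-values for the members. Trichoderma reesei is a filamentous fungus grown industrially for its cellulases and xylanases. All 6 samples carry the strain label HJ48, the tissue label hypha, an age of 4 days and anaerobic fermentation. The 3 glucose samples fermented glucose and the 3 xylose samples fermented xylose. The series title speaks of recombinant strains, and the labels used here name no construct or allele. Nothing in the labels says whether the 3 samples of a sugar came from separate cultures, so the spread between them may be technical.

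A scaffold is a stretch of assembled genome, and a gene model is a predicted gene on it. The names record how a model was predicted. Fgenesh names come from a program that finds genes by their sequence signals, Genewise names from alignment of known proteins, and names that start with estExt from models extended with sequenced transcripts. Glucose represses many fungal genes for the use of other sugars. Xylose is reduced and oxidised to xylulose, which enters the pentose phosphate pathway, and in this fungus it also acts on the regulator of xylanase genes. None of the 9129 names matched an identifier of the reference gene table (assembly v2.0 of strain QM6a), so no member can be given a product, and no sequence is shown. Members are named by their identifiers only.

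Values are FPKM, read fragments per kilobase of model length, scaled to the library total, as deposited by the authors. Totals worked out from the spacing of the lowest values were 8887469 to 10102493 reads on glucose and 10739898 to 11449774 on xylose, and the xylose libraries were all the deeper ones. Whole reads and a length could be worked out for 57 members, all except the model listed at 0 in every library. Implied lengths ran from 258 to 6525 nt with a median of 1218 nt, beside 1299 nt over all models. A length is the smallest solution, and it can be too short where few reads were counted.

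Most scaffold 33 models were weakly expressed on both sugars. Only 10 of 58 had a mean of at least 1 FPKM on glucose, and 32 of 58 did on xylose. The median member had 0.0314, 0.111 and 0.0655 FPKM in glucose replicates 1, 2 and 3, and 1.89, 1.54 and 1.47 FPKM in xylose replicates 1, 2 and 3. The median over all 9129 models was 3.36 to 3.9 FPKM on glucose and 8.76 to 14.1 on xylose. Members thus lay far down the table under each sugar. Their median rank among all models was at percentile 7.6 on glucose and at percentile 18.2 on xylose. The level of 2 members was above the median model on glucose, and of 3 on xylose. In a bulk sample, fewer cells that express a model and less RNA per cell cannot be told apart.

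**Figure D1:**
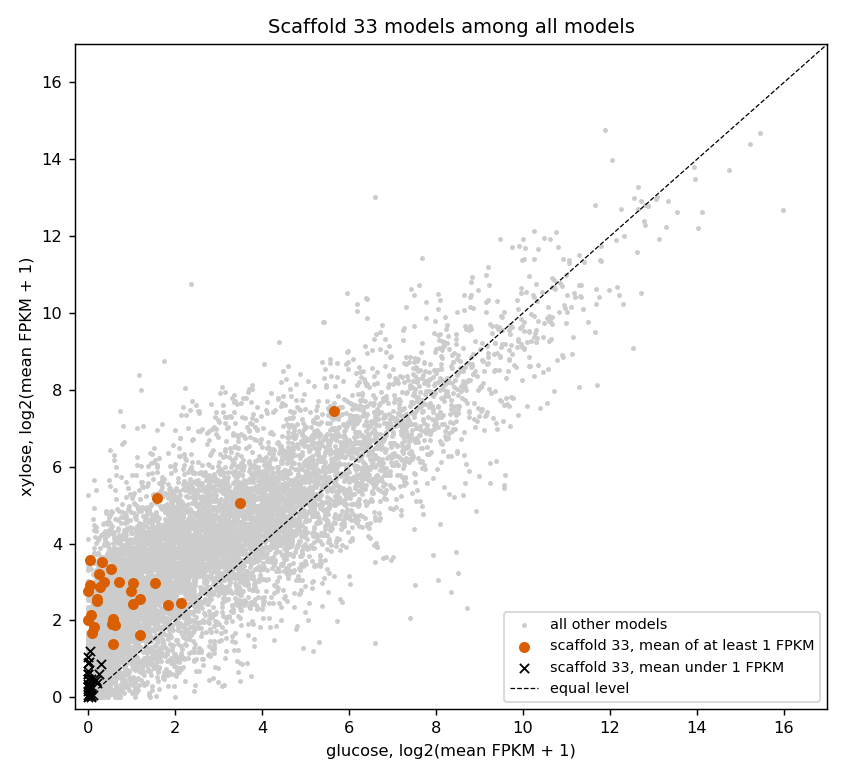
Mean level of every model on glucose (horizontal axis) and xylose (vertical axis), both as log2(mean FPKM + 1) over 3 libraries each. Grey points are the other models, filled circles the 30 scaffold 33 models averaging 1 FPKM or more over 6 libraries, and crosses the 28 under it. The members sit at the low end of the cloud, and the 30 filled circles lie above the line of equal level. Of these, 20 passed the filter through their xylose level alone, which by itself places them above the line.

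Many members had no read at all on glucose. The number of members listed at 0 was 29, 23 and 26 in the glucose libraries and 6, 5 and 6 in the xylose libraries. As shares of 58 these were 39.7% to 50% on glucose and 8.62% to 10.3% on xylose. Over all models the shares at 0 were 7.62% to 8.26% on glucose and 3.38% to 4.09% on xylose. Over the 3 libraries of a sugar together, 13 members had 0 reads on glucose and 2 had 0 reads on xylose. Another 18 members had 1 to 3 reads on glucose, out of 28793189 reads in those 3 libraries. Members at 1 FPKM or more numbered 9, 9 and 11 on glucose and 32, 32 and 30 on xylose.

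Scaffold 33 took a small share of each library, and 1 model made up most of it. Reads on its members made up 155.3, 124.1 and 126.5 RPM (reads per 1000000 of the library total) in glucose replicates 1, 2 and 3. They were 702.7, 600.8 and 528.4 RPM in xylose replicates 1, 2 and 3. The groups did not overlap, and the spread was 135 ± 17.4 RPM on glucose and 611 ± 87.6 RPM on xylose (SD, n = 3). The model e_gw1.33.17.1 held 63.1% to 70.9% of those reads on glucose and 50.2% to 54.8% on xylose. The other 57 members together had 44.3 ± 2.11 RPM on glucose and 293 ± 55.7 RPM on xylose. In that sum the glucose libraries ran from 41.9 to 45.8 RPM, while the xylose libraries ran from 238.6 in replicate 3 to 349.9 in replicate 1.

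Of the 58 members, 30 averaged 1 FPKM or more and entered the fit of all models, as did 7766 of 9129 models in the whole table. As shares, 51.7% of members and 85.1% of all models were fitted. Of the 30, 28 were called higher on xylose, 0 lower, and 2 were left uncalled. The test was limma's, on log2(FPKM + 1), at 0.05 after Benjamini-Hochberg adjustment. Over all fitted models 64.8% were called higher and 14.1% lower. Every xylose library was above every glucose library in 28 of the 30 members and in 66.2% of all fitted models. The scaffold was chosen on this contrast, and nothing is read from that count. The filter also bears on it, since 20 of the 30 members had a glucose mean under 1 FPKM and passed through their xylose level alone, which fixes their direction. That was so for 18% of all fitted models. Among the 10 members with at least 1 FPKM on glucose, 8 were called higher and the median log2 fold change was 1.39. Of the 6368 fitted models with at least 1 FPKM on glucose, 57.9% were called higher and the median was 0.83.

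How far members stood from the other models depended on the filter and on the scaling. The median log2 fold change, xylose minus glucose, was 1.86 for the 30 fitted members and 1.10 over all fitted models. With every model above 0 fitted, the median was 0.88 for 57 members and 0.90 over 9010 models, without the gap of 0.75. Models with a mean under 1 FPKM were 27 of those 57 members and 1244 of those 9010 models. The pseudocount presses the log2 fold changes of such models towards 0, and the lost gap cannot be told apart from that effect. In that fit 38 of 57 members and 60.4% of all models were called higher. Median-of-ratios scaling, which centres each library on the typical model, moved the median of all models from 1.10 to 0.10 and that of the 30 members to 1.15. It called 23 members higher, 1 lower and 6 neither, beside 38.4% higher and 35.0% lower over all models. Among the 10 members with at least 1 FPKM on glucose, whose direction the filter does not fix, that scaling called 4 higher and 1 lower, with a median of 0.42. Over all models with at least 1 FPKM on glucose it called 28.2% higher and 42.7% lower, with a median of -0.25. The 3 members below 0 were then gw1.33.35.1, gw1.33.85.1 and fgenesh5_pg.C_scaffold_33000011. Quantile normalization put the median of all models at 0.005 and that of the 30 members at 0.70, with 16 members called higher, 3 lower and 8 below 0. Of all 7766 fitted models it called 2551 higher and 2627 lower. Among the same 10 members it called 2 higher and 3 lower, and their median was -0.06. Over all models with at least 1 FPKM on glucose it called 28.2% higher and 40.4% lower, with a median of -0.2.

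The most abundant member was e_gw1.33.17.1, the only one with at least 100 FPKM on xylose. It had 60.1, 42.8 and 46.2 FPKM in the glucose libraries and 192.8, 170.0 and 158.4 FPKM in the xylose libraries. The groups stood apart, with the lowest xylose library well above the highest glucose library. Its log2 fold change was 1.80 (SE 0.17), from 2598 reads on glucose and 10665 on xylose, and its implied length was 1830 nt. It was higher on xylose under that scaling (0.60) and with quantile normalization (1.38) as well. Its level was at percentile 85.6 of all models on glucose and at percentile 93.1 on xylose.

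Another 4 members had a mean of 10 to 100 FPKM on xylose, and they came from very different glucose levels. estExt_fgenesh5_pg.C_330047 had 11.96, 9.90 and 8.77 FPKM on glucose and 40.6, 40.6 and 14.7 on xylose. Replicate 3 of xylose was far below the others and only a little above the highest glucose library. Its log2 fold change was 1.44 (SE 0.35), and with the median of ratios it was 0.29 and no longer called. fgenesh5_pg.C_scaffold_33000023 had 2.53, 2.23 and 1.26 FPKM on glucose and 58.8, 17.8 and 30.5 on xylose. All 3 xylose libraries were above all glucose libraries, yet they differed more than 3-fold among themselves. Its log2 fold change was 3.47 (SE 0.38), from 51 reads on glucose and 1052 on xylose.

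The other 2 models of that class were close to silent on glucose. estExt_GeneWisePlus.C_330109 had 0.113, 0 and 0 FPKM on glucose and 9.32, 13.3 and 10.2 on xylose. A single read on glucose stood against 369 reads on xylose, so the rate of reads was 316 times as high, with an exact 95% interval of 56.4 to 12510. Its log2 fold change of 3.51 (SE 0.24) was the largest of the members, and the pseudocount of 1 FPKM understates it. estExt_Genewise1.C_330062 had 0.145, 0.319 and 0.263 FPKM on glucose and 9.61, 14.0 and 7.94 on xylose. The rate of its reads was 42.7 times as high on xylose (exact 95% interval 23.7 to 86.1), and its log2 fold change was 3.18 (SE 0.26). The intervals, here and below, cover counting error only and not the spread between libraries.

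**Figure D2:**
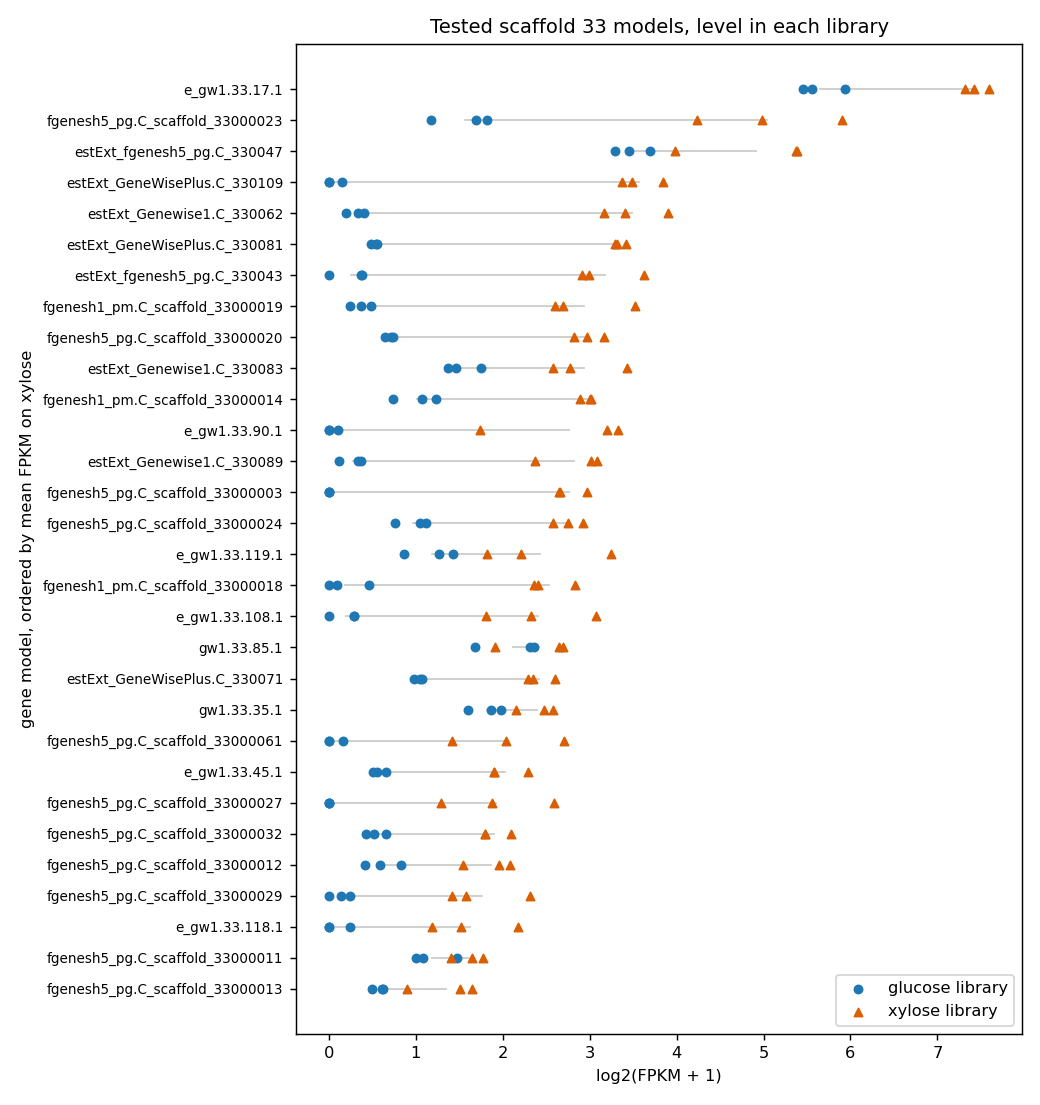
Level of each of the 30 fitted scaffold 33 models in every library, as log2(FPKM + 1), with circles for 3 glucose and triangles for 3 xylose libraries and a grey line between the group means. In 28 of 30 models every triangle lies to the right of every circle, beside 66.2% of all fitted models. The exceptions are gw1.33.85.1 and fgenesh5_pg.C_scaffold_33000011.

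Of the 5 members with the largest log2 fold changes, the remaining 2 had under 10 FPKM on xylose. estExt_fgenesh5_pg.C_330043 had 0, 0.290 and 0.299 FPKM on glucose and 11.3, 6.92 and 6.53 on xylose, with a log2 fold change of 2.93 (SE 0.27). Its 4 reads on glucose and 188 on xylose gave a ratio of read rates of 40.2 (exact 95% interval 15.5 to 149.2). estExt_GeneWisePlus.C_330081 had 0.397, 0.454 and 0.467 FPKM on glucose and 9.68, 8.91 and 8.77 on xylose. Both sets of libraries were tight for this model, with SDs of 0.0375 FPKM on glucose and 0.490 on xylose. Its log2 fold change was 2.81 (SE 0.22), from 36 reads on glucose and 869 on xylose. With the median of ratios these 5 members had values of 2.06 to 2.94, and with quantile normalization 1.44 to 2.42. They were picked for their size on this contrast, and both scalings kept the filter on FPKM as deposited. All except fgenesh5_pg.C_scaffold_33000023 passed it through their xylose level alone, so no support is read from these values.

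The 5 members with the smallest differences had 18 to 137 reads on glucose. gw1.33.85.1 had 4.11, 3.97 and 2.19 FPKM on glucose and 5.47, 5.27 and 2.75 on xylose. The groups overlapped, since xylose replicate 3 was below 2 of the glucose libraries, and the log2 fold change of 0.30 (SE 0.30) was not called. With the median of ratios it was -0.66 and called lower, so its direction depended on the scaling. fgenesh5_pg.C_scaffold_33000011 had 1.00, 1.77 and 1.11 FPKM on glucose and 2.12, 1.65 and 2.43 on xylose. Here too the groups overlapped, and the log2 fold change of 0.42 (SE 0.24) was not called.

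The remaining 3 of these 5 were called higher, and only narrowly in 1 case. gw1.33.35.1 had 2.03, 2.96 and 2.65 FPKM on glucose and 4.98, 4.54 and 3.43 on xylose, a log2 fold change of 0.58 (SE 0.25). The call was lost when any library other than xylose replicate 3 was left out. With the median of ratios the value turned to -0.35. fgenesh5_pg.C_scaffold_33000013 had 0.525, 0.404 and 0.535 FPKM on glucose and 0.868, 1.83 and 2.14 on xylose, a log2 fold change of 0.78 (SE 0.25). e_gw1.33.119.1 had 1.40, 0.820 and 1.69 FPKM on glucose and 8.48, 3.62 and 2.53 on xylose, a log2 fold change of 1.24 (SE 0.36). Its xylose libraries spread widely, with replicate 1 far above the others. With the median of ratios neither of the last 2 was called (0.24 and 0.39), and with quantile normalization both were below 0 (-0.41 and -0.21).

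The other 18 fitted members were all called higher, beside 64.8% of all fitted models. Only estExt_Genewise1.C_330083, fgenesh1_pm.C_scaffold_33000014 and estExt_GeneWisePlus.C_330071 among them had a mean of at least 1 FPKM on glucose. The rest passed the filter through their xylose level alone, which fixes their direction. Means of the 18 were 0 to 1.90 FPKM on glucose and 2.21 to 6.98 FPKM on xylose, with log2 fold changes of 1.25 to 2.76 and a median of 1.94. For 2 of the 18 no read was counted on glucose. fgenesh5_pg.C_scaffold_33000003 was listed at 0 in all glucose libraries and had 5.31, 5.25 and 6.82 FPKM on xylose. From its 65 reads on xylose, the exact 95% lower limit of the ratio of read rates was 14.66, and the ratio to a floor of 3 reads over the glucose libraries was 18.55. fgenesh5_pg.C_scaffold_33000027 was also listed at 0 in all glucose libraries and had 5.03, 1.44 and 2.67 FPKM on xylose, and its 43 reads gave a lower limit of 9.559 and a ratio to the same floor of 12.27. Very few reads on glucose were also counted for e_gw1.33.90.1, which had 0, 0 and 0.0782 FPKM on glucose and 9.06, 8.17 and 2.34 on xylose. Its single read on glucose and 284 on xylose gave a ratio of 243.2 (exact 95% interval 43.3 to 9639).

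Because members were low, they were also set beside models of like level. In the class of 1 to 5 FPKM, which held 25 of the 30 members, the median log2 fold change was 1.78 for members and 1.30 for all 2191 models, and 19 of the 25 members lay above that value. In this class 23 of 25 members and 71.8% of all models were called higher. Both members of the class of 5 to 10 FPKM (3.18 and 3.51), both of the class of 10 to 50 FPKM (1.44 and 3.47) and the one above 100 FPKM (1.80) exceeded the median of their class, which was 1.5, 1.07 and 0.17. With the median of ratios, members of 1 to 5 FPKM had a median of 1.13 and all models of that class 0.55. The classes rest on the mean over all 6 libraries, xylose included, so they do not match models by their glucose level. Of the 30 members, 20 passed the filter through their xylose level alone, which fixes their direction. These are descriptions of the contrast that chose the scaffold, over members that passed the filter, and no excess at like level is read from them.

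**Figure D3:**
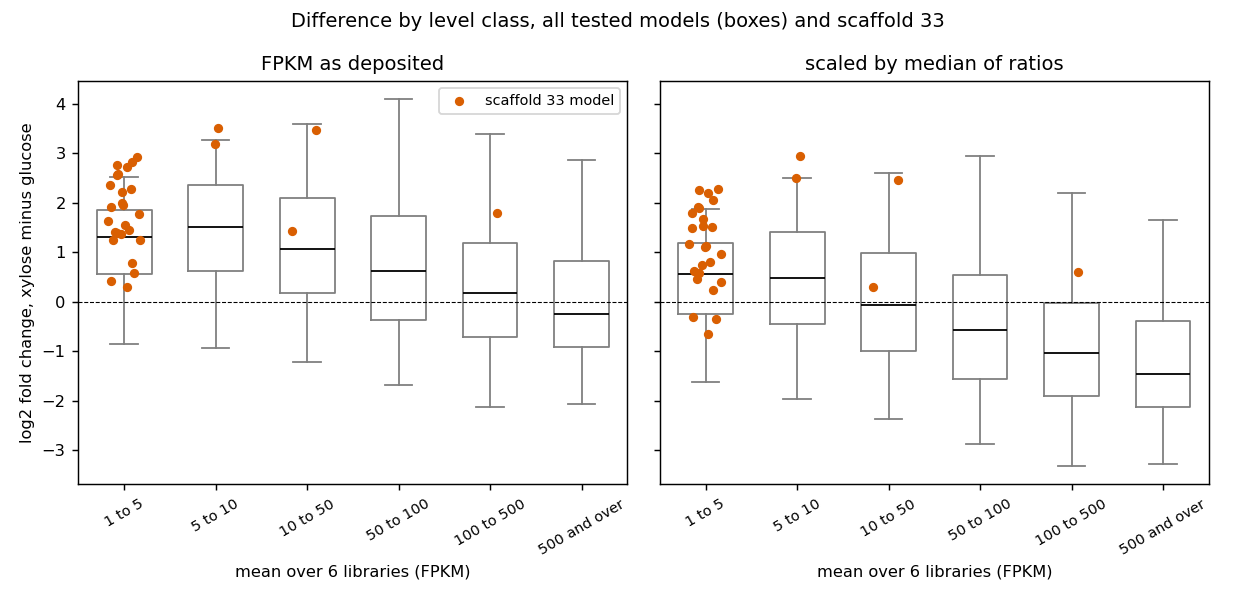
Difference in log2(FPKM + 1) between the sugars, xylose minus glucose, by mean level over 6 libraries. Boxes show quartiles and whiskers the 5th to 95th percentile of all fitted models, and points the 30 scaffold 33 models, on FPKM as deposited (left) and scaled by the median of ratios (right). Most points lie in the class of 1 to 5 FPKM, with medians of 1.78 (left) and 1.13 (right) beside 1.30 and 0.55 for all models.

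The 28 members under a mean of 1 FPKM were not fitted, and most of them had more reads on xylose, as did most unfitted models of the table. They held 50 reads on glucose and 583 on xylose in all, and their highest mean was 0.673 FPKM. By reads per library total, 24 were higher on xylose, 3 were higher on glucose, and 1 had no read. The exact 95% interval of the ratio lay above 1 for 15 members, below 1 for 0 and included 1 for 12. Of the 1244 unfitted models with reads in the whole table, 73.9% had more reads per total on xylose, beside 88.9% of the 27 such members. The interval lay above 1 for 44.5% of them, beside 55.6% of these members, and below 1 for 7.07%. The 3 with more reads per total on glucose were fgenesh5_pg.C_scaffold_33000010, gw1.33.83.1 and fgenesh5_pg.C_scaffold_33000031, each with at most 3 reads on either sugar. fgenesh5_pg.C_scaffold_33000001 was listed at 0 in all 6 libraries.

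Several of these members had many more reads on xylose than on glucose. estExt_GeneWisePlus.C_330006 had the longest implied length of the scaffold, 6525 nt. It had 0, 0 and 0.0156 FPKM on glucose and 1.18, 0.777 and 0.602 on xylose. That was 1 read on glucose and 186 on xylose, a ratio of read rates of 159.3 (exact 95% interval 28.2 to 6324). estExt_GeneWisePlus.C_330097 had 0.0627, 0 and 0 FPKM on glucose and 0.986, 0.877 and 0.779 on xylose, from 1 read and 53 reads. gw1.33.93.1 had 0, 0.105 and 0 FPKM on glucose and 2.27, 1.20 and 0.462 on xylose, from 1 read and 41 reads. fgenesh1_pm.C_scaffold_33000009 was listed at 0 on glucose and had 0.938, 1.32 and 0.967 FPKM on xylose. Its 36 reads gave an exact 95% lower limit of 7.936 and a ratio to the floor of 10.28. fgenesh5_pg.C_scaffold_33000044 was the unfitted member with the most reads on glucose, 16 beside 64 on xylose, with 0.143, 0.335 and 0.216 FPKM on glucose and 1.02, 0.518 and 0.887 on xylose.

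The others had at most 21 reads on xylose. Those with 0 reads on glucose and more than 3 on xylose were estExt_fgenesh5_pg.C_330009 and e_gw1.33.36.1 with 17 each, gw1.33.80.1 with 14, e_gw1.33.98.1 with 13, estExt_Genewise1.C_330007 and e_gw1.33.34.1 with 11 each, and gw1.33.114.1 with 7. With 1 read on glucose there were e_gw1.33.65.1 with 19 reads on xylose, fgenesh5_pg.C_scaffold_33000022 with 11, fgenesh1_pm.C_scaffold_33000010 with 8, e_gw1.33.112.1 with 7 and fgenesh5_pg.C_scaffold_33000002 with 6. More reads on glucose were counted for fgenesh5_pg.C_scaffold_33000026 (7, and 21 on xylose), estExt_GeneWisePlus.C_330024 (6 and 18) and e_gw1.33.41.1 (5 and 12), and in these 3 the FPKM of the groups overlapped. The last 4, fgenesh5_pg.C_scaffold_33000045, fgenesh1_pm.C_scaffold_33000008, fgenesh5_pg.C_scaffold_33000038 and gw1.33.116.1, had at most 3 reads on either sugar, which does not allow a direction at this depth.

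**Figure D4:**
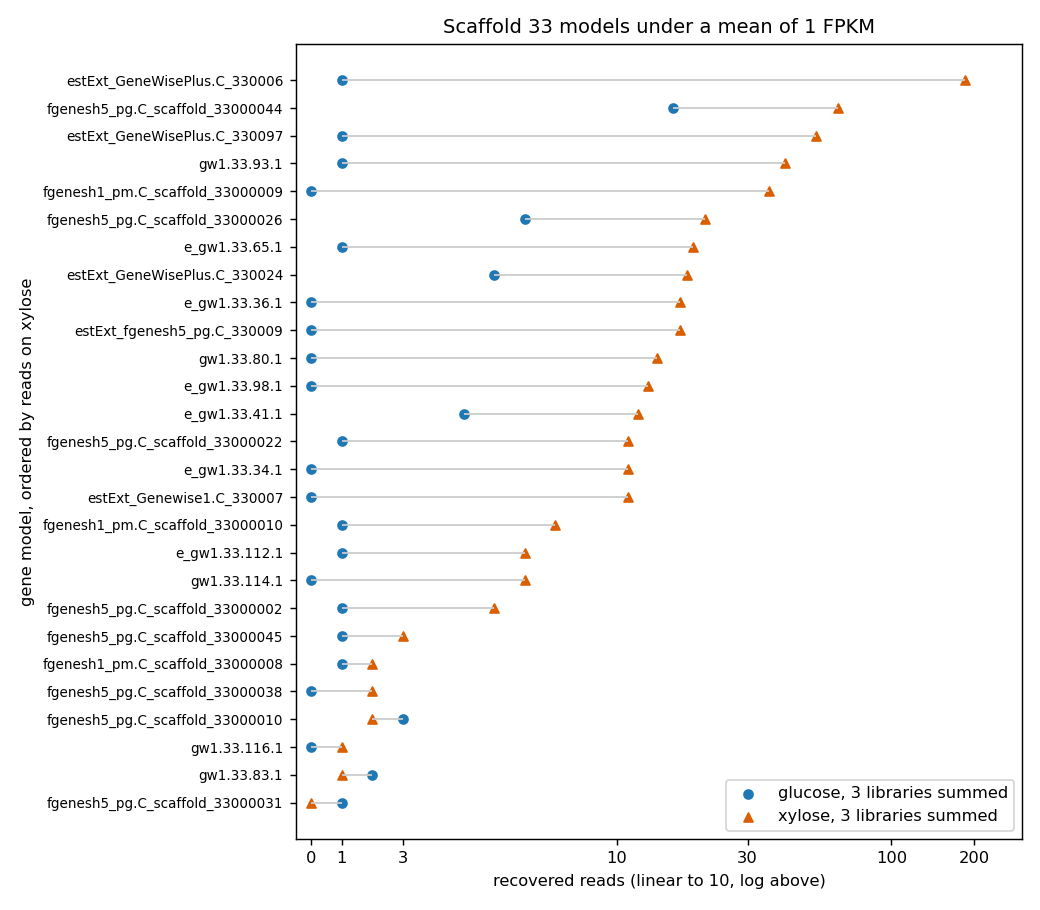
Reads worked out from the FPKM values for the 27 scaffold 33 models with reads and a mean under 1 FPKM, summed over 3 glucose (circles) and 3 xylose libraries (triangles), on an axis that is linear to 10 and logarithmic above. In 24 of the 27 more reads per library total were counted on xylose, with estExt_GeneWisePlus.C_330006 farthest apart at 1 and 186 reads.

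How much members varied within a sugar depended on the scale. The median SD of a fitted member on the log2(FPKM + 1) scale was 0.137 on glucose and 0.385 on xylose, beside 0.181 and 0.311 over all fitted models. The pseudocount presses the spread of low models towards 0, and 20 of the 30 members averaged under 1 FPKM on glucose. Relative to the mean, the SD was larger on glucose in 18 of the 28 fitted members with reads on glucose. For the 10 members with at least 1 FPKM on glucose the median SD was 26.1% of the mean on glucose and 26.3% on xylose, beside 14.9% and 21.8% over all such models. The highest xylose library of a member was on median 1.75 times the lowest, from 1.10 to 3.87 times, and it exceeded the lowest more than 2-fold in 11 of 30 members. The 3.87-fold spread was that of e_gw1.33.90.1. Among the xylose libraries, replicate 1 was the highest for 14 of 30 members (46.7%) and for 65.0% of all fitted models. Replicate 3 was the lowest for 16 members (53.3%) and for 60.9% of all. Members did not all follow 1 order. Xylose replicate 3 was the highest for 8 members, among them e_gw1.33.108.1, which had 4.01, 2.51 and 7.42 FPKM in xylose replicates 1, 2 and 3.

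The names hold a number within each series, which for the fgenesh5 predictions is taken here as an order along the scaffold. Members with fgenesh5_pg or estExt_fgenesh5_pg names had 23 numbers from 1 to 61, of which 13 were fitted. Of these 13, 12 were called higher, beside 64.8% of all fitted models. Among the 12, only numbers 23 and 47 had at least 1 FPKM on glucose (means of 2.01 and 10.2). The rest, such as number 3 with 0 FPKM on glucose, passed the filter through xylose alone. That fixes their direction, and nothing is read from the count. The 12 were interspersed with models that had hardly any reads. Number 3 had 5.80 FPKM on xylose (mean), while numbers 1 and 2 had 0 and 0.148 FPKM. Number 23 had 35.7 FPKM on xylose, its neighbour 22 had 0.383 FPKM and its neighbour 24 had 5.76 FPKM. Number 47 had 31.99 FPKM on xylose and 10.2 on glucose, while numbers 44 and 45 had 0.810 and 0.0786 FPKM on xylose. Numbers 11, 12 and 13 were all low, with xylose means of 2.07, 2.68 and 1.61 FPKM, and held 1 of the 2 members not called. Whether other models lie between these numbers was not examined.

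**Figure D5:**
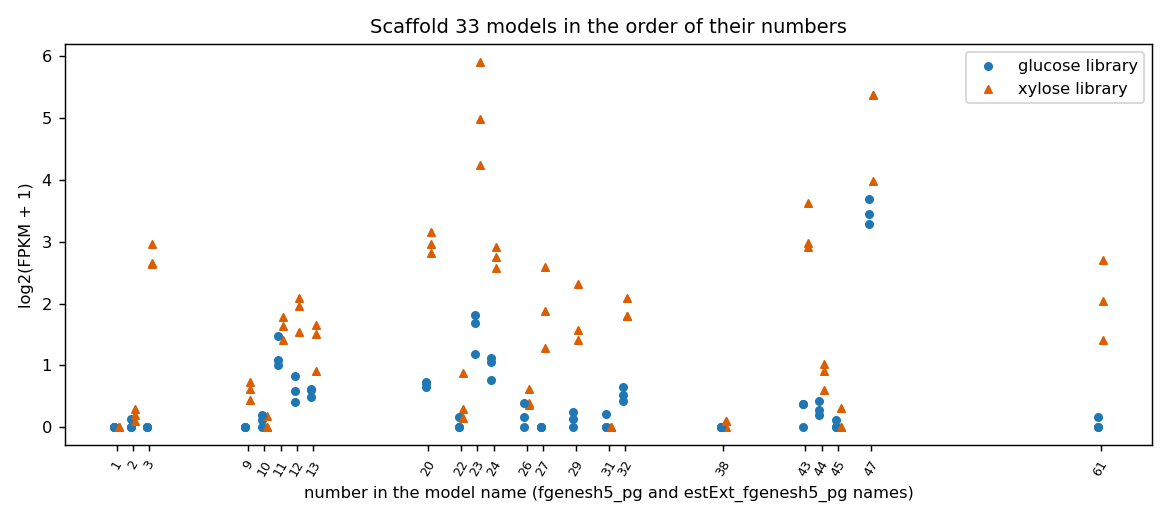
Level of the 23 scaffold 33 models with fgenesh5 names, as log2(FPKM + 1), in the order of the number in the name, with circles for 3 glucose and triangles for 3 xylose libraries. Models with clear triangles, such as numbers 3, 23, 43 and 47, alternate with models near 0, such as numbers 1, 2, 38 and 45.

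Members of the different name series did not have the same levels. Of 20 fgenesh5_pg models 11 were fitted, and their median log2 fold change was 1.78. Of 12 e_gw1 models 6 were fitted, with a median of 1.67. Of 7 gw1 models, which had the lowest median xylose level (0.592 FPKM), 2 were fitted, and those were the 2 with small differences named above. The 3 series with estExt names had medians of 2.18 to 2.81. The fgenesh1_pm series had 6 members, 3 of them fitted, with a median of 2.35. fgenesh5_pg names made up 34.5% of members and 24.8% of all models, and e_gw1 names 20.7% and 27.8%.

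Scaffold 33 was set beside the scaffolds with the next numbers, 32 and 34, and beside scaffolds 29 and 7. The last 2 were taken because earlier results on these libraries had shown smaller differences there, so they are not neutral comparisons. The share of models averaging 1 FPKM or more was 51.7% for scaffold 33, 88.7% for 32, 97.7% for 34, 78.1% for 29 and 91.5% for 7. The median model on glucose had 0.067 FPKM on scaffold 33 and 2.33 to 8.97 FPKM on the other 4. On xylose it had 1.84 FPKM on scaffold 33 and 6.61 to 20.6 FPKM on the others. Median log2 fold changes of fitted models were 1.86 on scaffold 33 and 0.60, 0.73, 0.67 and 0.45 on scaffolds 32, 34, 29 and 7. All 4 of these lay under the median of 1.10 over all fitted models. With the median of ratios the 4 other medians were -0.30, -0.29, -0.25 and -0.59, that of scaffold 33 was 1.15 and that of all models 0.10. The medians of scaffold 33 rest on the 30 members past the filter. Of these, 20 passed it through their xylose level alone, which fixes their direction, as did 18% of all fitted models. With every model above 0 fitted, the median was 0.88 for scaffold 33 and 0.90 over all models, with low models pressed towards 0 by the pseudocount. These differences between scaffolds were not tested.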

How the data were processed

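RNA from hyphae was sequenced in 3 libraries on glucose and 3 on xylose. The authors' deposited table holds FPKM for 9129 gene models, with columns assigned by the labels' descriptions. The submitters' processing notes list HTSeq 0.6.1, TopHat2 2.0.12 and Bowtie2 2.2.3 without saying what each did. The build, the annotation and the use of strand were not given in the sources used here. How reads of overlapping or near-identical models were treated is not known, so such reads may have been shared or left out. FPKM also moves with a few abundant models. Members and lists were chosen with earlier results of these data known.

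Reads, lengths and totals were worked out from the steps of the FPKM values (9008 models, 99.98% of those above 0; tolerance 1e-05 reads plus a relative 3e-09) and tested on simulated data. Models averaging 1 FPKM or more were fitted, log2(FPKM + 1) by sugar, with limma 3.58.1 in R 4.3.3 (eBayes with trend, two-sided, Benjamini-Hochberg over 7766 models, threshold 0.05). Fold changes are on that scale. Ratios of read rates have exact 95% binomial intervals (SciPy 1.17.1). Reads carried no molecular identifiers, so intervals and the floor of 3 reads cover counting error only. The rule for named models took the members with at least 100 FPKM on xylose, the 5 largest and 5 smallest log2 fold changes, those not called and those not fitted. Models named beyond these were chosen after their values were seen. Alternatives were other pseudocounts, filters, scalings, limma options, voom on the recovered reads, a replicate block and leaving out each library. Counts over models with at least 1 FPKM on glucose, and over all unfitted models, were added after the values were seen.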

Additional observations from a re-analysis of the deposited data

How the results depend on the processing

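Of the 30 fitted members, 28 were called higher and 0 lower, and 27 to 28 higher with each library left out in turn. Of all 7766 fitted models, 5035 were called higher and 1095 lower, and 4664 to 5276 higher with each library left out in turn. The median log2 fold change of members was then 1.79 to 1.89. Pseudocounts of 0.1 and 5 gave medians of 3.53 and 0.861 for members, and 1.308 and 0.655 for all models. Voom on recovered reads gave 3.67 for members and 1.318 over 7764 models. These values move with the offset added to low models. Without a filter the median was 0.881 over 57 members and 0.90 over 9010 models, with no excess of members. Of those 57 members, 27 averaged under 1 FPKM, where the pseudocount presses log2 fold changes towards 0. Then 38 members (66.7%) and 5445 models (60.4%) were called higher, and of the 27 added members 11 were higher and 0 lower. With a filter at 5 FPKM only 5 members were left, all higher (median 3.18). In that fit 3450 of 5575 models were called higher, with a median of 0.992. With the median of ratios, 2980 models were higher and 2721 lower (median 0.10), and 23 members were higher and 1 lower (median 1.15). With quantile normalization these numbers were 2551 and 2627 (median 0.005), and 16 and 3 (median 0.702). Both scalings take out the common shift by construction. Members that turned were, with the median of ratios, gw1.33.35.1 (-0.35), gw1.33.85.1 (-0.66) and fgenesh5_pg.C_scaffold_33000011 (-0.31). With quantile normalization they were these 3 (-0.85, -1.13 and -0.91), estExt_Genewise1.C_330083 (-0.07), estExt_GeneWisePlus.C_330071 (-0.05), fgenesh5_pg.C_scaffold_33000012 (-0.03), fgenesh5_pg.C_scaffold_33000013 (-0.41) and e_gw1.33.119.1 (-0.21). The replicate block called 27 members higher and 5034 models higher, and lost gw1.33.35.1. No label ties a replicate number to a culture or day. Same-numbered libraries deviated from their group means with correlations of 0.0009, -0.0721 and 0.0732, and the block was not used further. Depth limits the 38 members with at most 10 reads on glucose.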
